A study of Mus musculus with 14 samples.

Results

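The genes described here encode the subunits of the mitochondrial respiratory chain and of ATP synthase. They were the protein-coding genes of the deposited count table whose symbols begin with mt-Nd, mt-Co, mt-Atp, mt-Cytb, Ndufa, Ndufb, Ndufc, Ndufs, Ndufv, Uqcr, Cox4 to Cox8 or Atp5, or are Sdha to Sdhd or Cyc1. This rule took 108 of 55487 genes and used no measured value. Of these, 13 were encoded by the mitochondrial genome and 85 were nuclear genes for subunits. The other 10 only share a prefix with the subunits: Ndufaf1 to Ndufaf8, which are assembly factors of complex I, and Cox7a2l and Atp5s. A further 13 genes with such symbols were not protein-coding and were left out.

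The respiratory chain sits in the inner mitochondrial membrane. Complexes I and II take electrons from NADH and succinate, complex III passes them to cytochrome c, and complex IV hands them to oxygen. Complexes I, III and IV pump protons, and ATP synthase, also called complex V, uses the proton gradient to make ATP. All of these complexes except complex II combine subunits read from mitochondrial DNA with subunits read from nuclear genes, so the 2 genomes have to supply matching parts. Mast cells draw on this machinery, as well as on glycolysis, when they are activated and release their granules.

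RNA sequencing was done on 14 libraries of mast cells collected from mouse ears. The mice were labelled nt, read here as untreated, or had been treated with MC903, and no strain, age, genotype or duration of treatment is given in the sources used here. MC903 is calcipotriol, a vitamin D analogue that produces a dermatitis resembling atopic dermatitis when applied to mouse skin. Each library was made from a pool of up to 100 cells from both ears by SMART-Seq HT amplification and Nextera XT tagmentation.

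Libraries 1 to 5 hold resident mast cells of untreated mice, and libraries 6 to 10 hold the same cell type after MC903. Libraries 11, 13, 14 and 15, also after MC903, carry the label bone marrow mast cells. The protocol in the labels speaks of resident and integrin β7+ mast cells only, so the last group of 4 is called here by its sample label. The protocol names both ears as the source of all cells, and whether a mouse's pool gave 1 library or several is not stated. No animal is named for any library, so p-values measure the spread between libraries, which may be technical. In such pools of cells, fewer cells of a type and less RNA per cell cannot be told apart.

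Total counts ranged from 13068078 to 31781926 per library. Libraries 7, 8 and 15 had the most genes detected (34560, 35246 and 32814, against 16025 to 28790 in the other 11). All 9 mast cell markers checked were expressed in every group, and their summed level was 84555 to 110035 CPM (the usual per-library count rate, scaled between libraries by TMM) in untreated resident, 104725 to 159329 CPM in MC903 resident and 102358 to 154700 CPM in bone marrow libraries. Skeletal muscle cells are rich in mitochondria, and their 7 markers summed to 2.69 to 9.07, 4.87 to 25.6 and 1.87 to 16.9 CPM, respectively, with Tnnt3 at 0 in all untreated libraries. The 4 adipocyte markers stayed at or under 3.99 CPM in every library, with Adipoq at 0 in the untreated and bone marrow groups. Library 15 stood apart in the 6 macrophage and dendritic cell markers (4717 CPM, against a bone marrow median of 123) and library 11 in the 2 basophil markers (981 CPM, median 152). The sums of both lists were higher in every bone marrow library than in any untreated one. They were 79.3 to 4717 against 23.1 to 76.1 CPM for macrophage and dendritic cells, and 46.5 to 981 against 9.50 to 37.2 CPM for basophils. Among the single markers, only Cd68 (69.3 CPM or more against at most 68.0) and Mcpt8 (46.5 CPM or more against at most 37.2) were so separated. Adgre1, C1qa, C1qb, Mrc1, Flt3 and Prss34 had a lowest bone marrow value of 0 CPM. The mean of Flt3 was lower in bone marrow than in untreated libraries (0.535 against 0.791 CPM). The 3 endothelial markers summed to 7.44 to 39.8 CPM in bone marrow and 0.189 to 3.61 CPM in untreated libraries. The difference came mainly from Pecam1 (means of 23.2 and 0.863 CPM). Cdh5 was lower in bone marrow libraries (means of 0.0209 and 0.594 CPM), and Cldn5 stayed at or under 0.505 CPM in them. The 5 T cell markers summed to at most 3.27 CPM in untreated and to 4.09 to 83.8 CPM in bone marrow libraries. MC903 resident libraries, at 0.231 to 43.8 CPM, overlapped both groups. The difference between bone marrow and untreated libraries came mainly from Cd4 (means of 28.6 and 0.576 CPM). Cd3e, Cd3d and Cd8a had a lowest bone marrow value of 0 CPM, and the highest of Cd3d was 16.8 CPM. The part of such cells in the results below was not tested, and the calls that were lost without libraries 7, 8 and 15 are given beside each comparison.

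The 13 mitochondrially encoded genes fell into 2 bands of abundance along their genome. Levels are compared between genes as CPM per kilobase of exon, averaged over the 14 libraries. mt-Co1 (catalytic subunit of complex IV; positions 5328 to 6872 of the mitochondrial chromosome, GRCm38) was highest at 5491 CPM per kilobase. mt-Nd1 followed at 2872, mt-Cytb of complex III at 2563, mt-Nd2 at 1016, mt-Nd5 at 870.4, mt-Nd4 at 734 and mt-Nd6 at 323 CPM per kilobase. The 6 genes from mt-Co2 to mt-Nd4l (positions 7013 to 10173), which are neighbours on the genome, were far lower. mt-Co3 had 43.9, mt-Co2 28.2, mt-Atp6 23.7, mt-Atp8 9.92, mt-Nd3 3.76 and mt-Nd4l 1.39 CPM per kilobase. A median nuclear subunit had 56.6 CPM per kilobase, so these 6 lay below it. mt-Nd4l was covered by at most 9 counts in an untreated library and 26 in a bone marrow library, so small differences in it were not detectable at this depth.

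**Figure D1:**
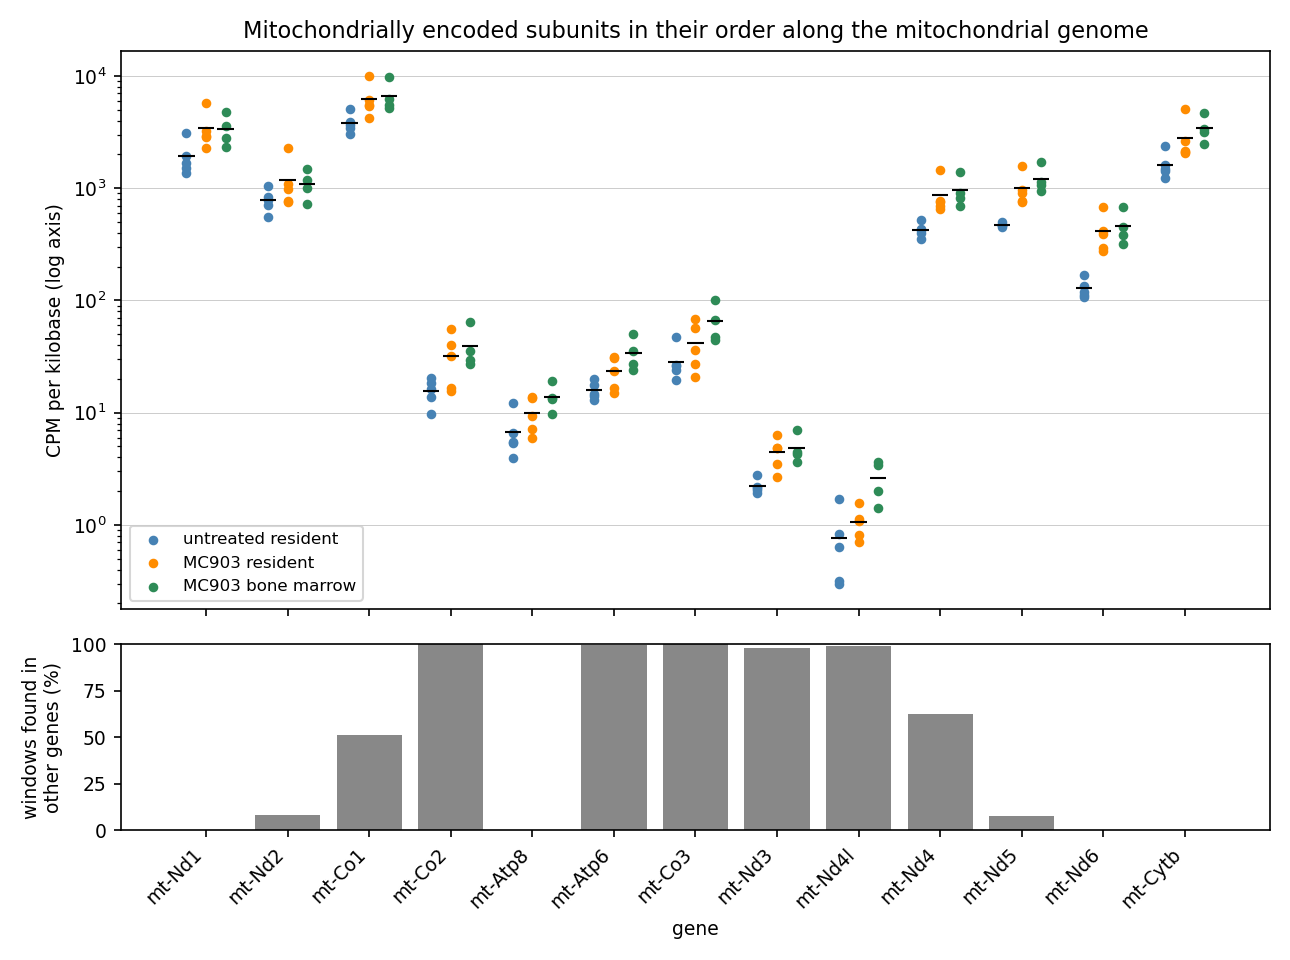
Upper panel: level of each mitochondrially encoded subunit in CPM per kilobase (log axis), in the order of the genes along the mitochondrial genome; each point is a library and each black line a group mean. Lower panel: percent of all 50-base windows of the gene that occur in other annotated transcripts. The 6 genes from mt-Co2 to mt-Nd4l lie under 50 CPM per kilobase on average and the other 7 over 300, and 5 of the 6 have 98.0% or more of their windows elsewhere.

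The low band coincides with a nuclear copy. A stretch of chromosome 1 (minus strand, from 24611535 to 24616197) holds 7 annotated unprocessed pseudogenes with near-identical sequence to this part of the mitochondrial genome. Every 50-base window of mt-Co2 occurs in an annotated transcript outside the mitochondrial genome. The share was 99.9% for mt-Co3, 99.5% for mt-Atp6, 98.8% for mt-Nd4l and 98.0% for mt-Nd3. The high genes shared fewer windows: 62.2% of mt-Nd4, 51.1% of mt-Co1, 8.19% of mt-Nd2, 7.61% of mt-Nd5 and none of mt-Nd1, mt-Nd6 and mt-Cytb. mt-Atp8, which lies between mt-Co2 and mt-Atp6 and was also low, shared none with an annotated transcript. On chromosome 1 the copies of mt-Atp6 (Gm10925, to 24614651) and mt-Co2 (Gm28661, from 24614885) leave a gap. Sequence outside annotated transcripts was not searched, so a copy of mt-Atp8 there would have been missed. Aligned stretches of 80 bases show the contrast between a partly divergent and an identical copy. They are read 5′ to 3′ on the coding strand from the GENCODE M21 transcripts, with capitals at the bases that differ, and the first pair starts at base 1054 of mt-Co1 and the second at base 1 of mt-Co3.

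mt-Co1: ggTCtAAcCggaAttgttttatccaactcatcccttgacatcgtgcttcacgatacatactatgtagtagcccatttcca
Gm29216: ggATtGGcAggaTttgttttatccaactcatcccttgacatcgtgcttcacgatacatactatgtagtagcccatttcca
mt-Co3: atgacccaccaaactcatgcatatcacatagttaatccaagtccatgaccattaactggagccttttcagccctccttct
Gm28437: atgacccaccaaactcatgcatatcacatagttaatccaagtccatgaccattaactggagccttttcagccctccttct

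The 6 differing bases above are all that separate Gm29216 from mt-Co1 over 492 aligned bases (98.8% identity). Gm28437 and mt-Co3 were identical over 783 bases, and so were Gm28661 and mt-Co2 over 681. How reads that match several places were counted is not given in the sources used here, so the levels of these genes are uncertain. The pseudogenes themselves had counts. Gm28437 averaged 33.7 ± 9.62 CPM (SD, n = 5) in untreated resident, 59.6 ± 23.6 CPM (n = 5) in MC903 resident and 90.3 ± 37.1 CPM (n = 4) in bone marrow libraries. Adding it to mt-Co3 gave 56.1 ± 17.9, 92.6 ± 38.2 and 141 ± 57.3 CPM. Among the copies on chromosome 1, only Gm28437 and Gm28438 were called higher in bone marrow than in untreated resident cells. Their log2 fold changes were 1.42 ± 0.322 and 1.51 ± 0.415 (SE, edgeR adjusted p = 0.00775 and 0.0296). The other copies were not called there (edgeR adjusted p from 0.0678 to 0.355), and 3.49% of all genes tested were called higher. The call of Gm28438 was lost without library 2, 3, 4, 11, 13 or 15 (edgeR adjusted p up to 0.0717), and with an offset for gene length.

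These pseudogenes were chosen after values were seen.

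The mitochondrially encoded subunits took a larger share of all counts in both MC903 groups than in untreated cells. In untreated resident libraries 1 to 5 their share was 1.10, 0.937, 1.08, 1.18 and 1.40%. In MC903 resident libraries 6 to 10 it was 1.86, 2.05, 1.82, 1.91 and 3.24%, and in bone marrow libraries 11, 13, 14 and 15 it was 3.14, 1.74, 1.59 and 2.17%. No library of either MC903 group fell within the untreated range, while the 2 MC903 groups overlapped. The means were 1.14 ± 0.170% (SD, n = 5), 2.18 ± 0.604% (n = 5) and 2.16 ± 0.699% (n = 4). Without library 10 the MC903 resident mean was 1.91%, and without library 11 the bone marrow mean was 1.83%.

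The 85 nuclear subunits together gave fewer counts than the 13 mitochondrial genes in every library. Their share was 0.652, 0.741, 0.667, 0.739 and 0.943% in untreated libraries and 1.03, 0.867, 1.20, 0.994 and 0.910% in MC903 resident libraries. It was 1.28, 1.19, 1.06 and 1.23% in bone marrow libraries. MC903 resident libraries 7 and 10 lay within the untreated range, and all 4 bone marrow libraries lay above it. The means stood in the order untreated resident (0.748 ± 0.116%), MC903 resident (1.001 ± 0.129%) and bone marrow (1.19 ± 0.0950%), with no test of the sums.

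The ratio of mitochondrial to nuclear subunit counts, which does not depend on the scaling between libraries, did not separate the groups. It ranged from 1.26 to 1.68 in untreated resident, from 1.51 to 3.56 in MC903 resident and from 1.46 to 2.46 in bone marrow libraries. On the log2 scale the means were 0.61 ± 0.164 (SD, n = 5), 1.09 ± 0.474 (n = 5) and 0.81 ± 0.343 (n = 4), and the ranges overlapped in all 3 pairs. MC903 resident exceeded untreated resident cells by 0.49 on the log2 scale, and by 0.30 without library 10. Bone marrow exceeded untreated resident cells by 0.21, and by 0.05 without library 11. No p is given, since the genes were chosen with earlier results of these data known. The ratio of mitochondrial mRNA to mitochondrial rRNA counts was 1.92 ± 0.200 in untreated resident, 1.93 ± 0.391 in MC903 resident and 1.58 ± 0.0688 in bone marrow libraries on the log2 scale. The bone marrow libraries (1.52 to 1.65) lay below all 5 untreated ones (1.72 to 2.22), and within the range of the MC903 resident ones.

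**Figure D2:**
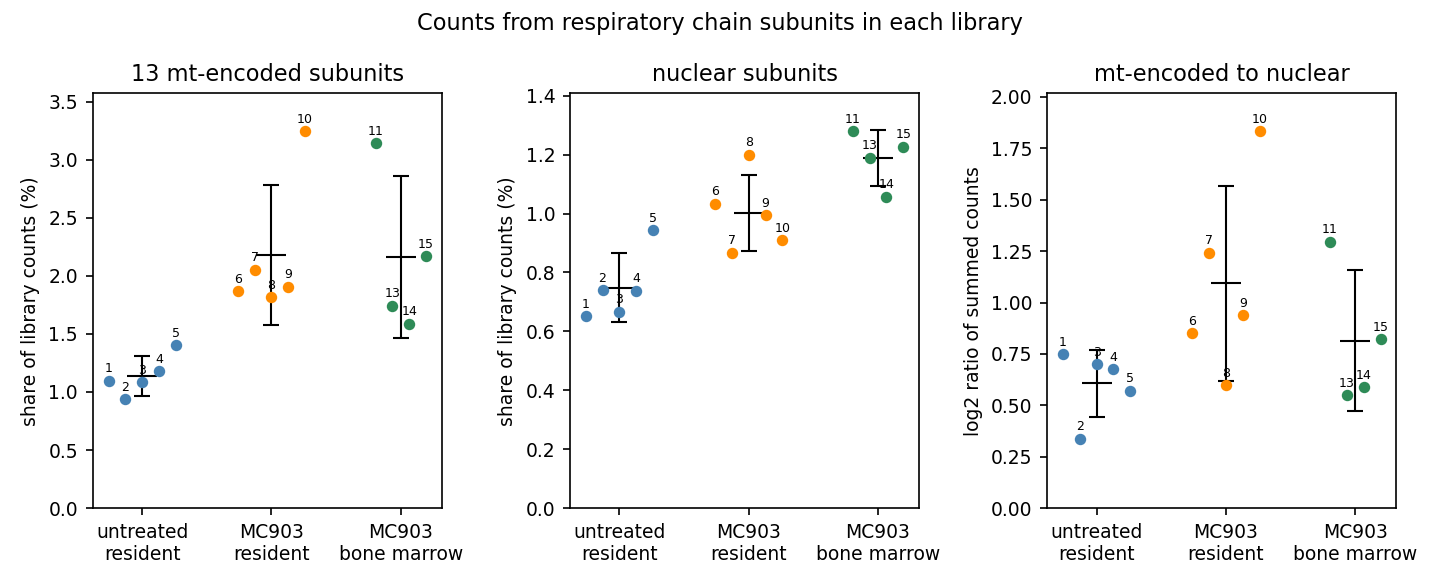
Share of library counts (%) from the 13 mitochondrially encoded and the 85 nuclear subunits, and the log2 ratio of their summed counts, in each numbered library, with the mean and SD of each group in black. The mitochondrial share of both MC903 groups (1.59% or more) lies above that of untreated libraries (1.40% or less), and the ratios overlap.

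Resident cells were compared first, after MC903 against no treatment. All 13 mitochondrial genes had a positive log2 fold change (0.48 to 1.68, median 0.80, against a median of 0.24 over all genes tested). The gap between these medians, 0.55, was 0.23 without library 10 and 0.0371 with no filter on low counts. Only mt-Nd4, mt-Nd5 and mt-Nd6, which are membrane subunits of complex I, passed the test, 3 of 13, where 0.571% of the 21014 genes tested were called higher. The test was the edgeR quasi-likelihood test with Benjamini-Hochberg adjustment over all genes tested, with a threshold of 0.05.

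mt-Nd6, the sole protein gene on the other strand of the mitochondrial genome (positions 13552 to 14070), changed most. It had 55.3, 61.7, 58.0, 69.4 and 88.3 CPM in untreated libraries and 154, 144, 218, 202 and 351 CPM in MC903 resident libraries. The groups did not overlap, and the fold was 3.21 (log2 1.68 ± 0.256 (SE), edgeR adjusted p = 0.000654). In bone marrow libraries mt-Nd6 had 353, 198, 166 and 233 CPM, all above the untreated range. Against untreated cells this was a fold of 3.57 (log2 1.84 ± 0.266, edgeR adjusted p = 0.000129). mt-Nd6 shares 14 bases (2.70% of its exon bases) with mt-Nd5 on the opposite strand at its 3′ end. The strand setting of the counting is not given in the sources used here. If strand was not used, RNA of the other strand anywhere along mt-Nd6 would be counted in it. The part of such RNA in these values was not tested.

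mt-Nd5 (positions 11742 to 13565) was even across the untreated group, with 852, 816, 866, 906 and 856 CPM. It had 1389, 1641, 1387, 1771 and 2879 CPM in MC903 resident libraries, with no overlap, a fold of 2.11 (log2 1.08 ± 0.199, edgeR adjusted p = 0.00342). In bone marrow libraries it had 3094, 1952, 1727 and 2091 CPM, a fold of 2.58 over untreated cells (log2 1.37 ± 0.209, edgeR adjusted p = 0.00022). Both MC903 groups lay above the untreated range. mt-Nd4 (positions 10167 to 11544) followed the same order, with 545, 595, 586, 718 and 489 CPM in untreated, 963, 908, 1038, 1059.6 and 1983 CPM in MC903 resident and 1928, 1125, 955 and 1260.5 CPM in bone marrow libraries. Its folds over untreated cells were 2.03 (edgeR adjusted p = 0.013) and 2.25 (edgeR adjusted p = 0.00285), and neither MC903 group overlapped the untreated one.

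The most abundant mitochondrial genes showed smaller differences with wider spread. mt-Co1 had 5356, 4733, 5598, 5995 and 7777 CPM in untreated libraries and 8260.5, 8509, 6466, 9403 and 15401 CPM in MC903 resident libraries. Library 8 lay within the untreated range, and the fold of 1.63 missed the threshold (log2 0.71 ± 0.217, edgeR adjusted p = 0.103). It passed without library 8 (0.0369) and in 6 of 11 fits with other settings, among them DESeq2 size factors and the DESeq2 test (adjusted p down to 0.00928). In bone marrow libraries mt-Co1 had 15102, 8497, 7989 and 9685 CPM, all above the untreated range, and the fold of 1.75 passed (edgeR adjusted p = 0.0337). This call was lost when library 1, 2, 3 or 11 was left out, with an edgeR adjusted p of up to 0.149, and with no filter on low counts, limma or an offset for gene length (adjusted p up to 0.192).

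mt-Cytb, the mitochondrial subunit of complex III, gave a similar picture. Its CPM were 1699, 1408, 1638, 1832 and 2709 in untreated, 2416, 2370.3, 2469, 3026 and 5851 in MC903 resident and 5360.1, 3612, 2821 and 3845 in bone marrow libraries. Untreated library 5 reached into the MC903 resident range but not into that of the bone marrow libraries. The folds over untreated cells were 1.74 (edgeR adjusted p = 0.104, or 0.0432 without library 5) and 2.11 (edgeR adjusted p = 0.0122). The call of mt-Cytb in bone marrow cells was lost with no filter on low counts (edgeR adjusted p = 0.128). mt-Nd1 and mt-Nd2 passed in neither comparison with untreated cells, with folds of 1.77 and 1.76 for mt-Nd1 and of 1.51 and 1.40 for mt-Nd2 (edgeR adjusted p from 0.0776 to 0.354). Library 5 was the highest untreated library for both, and without it mt-Nd1 passed in both comparisons (edgeR adjusted p = 0.0228 against MC903 resident and 0.0148 against bone marrow cells). Without library 14 mt-Nd1 also passed between bone marrow and untreated cells.

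The 6 genes of the low band passed in no comparison. Their log2 fold changes were 0.48 to 1.03 for MC903 resident against untreated cells and 1.04 to 1.77 for bone marrow against untreated cells. mt-Co3, which had 15.2, 20.9, 20.3, 18.6 and 36.8 CPM in untreated libraries, had 78.9, 37.3, 35.1 and 52.9 CPM in bone marrow libraries. Library 5 overlapped them, and the difference of 1.19 ± 0.384 missed the threshold (edgeR adjusted p = 0.0685). It passed without library 5 (edgeR adjusted p = 0.0275) and in 3 of 11 fits with other settings, the filter at 10 CPM, DESeq2 and limma (adjusted p down to 0.0251).

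In all, 5 of 13 mitochondrial genes were higher in bone marrow than in untreated resident cells (mt-Nd4, mt-Nd5, mt-Nd6, mt-Cytb and mt-Co1), where 3.49% of all genes tested were called higher, 3.37% lower and 6.87% in either direction. The median was 1.13, against -0.14 over all genes tested. For 8 of 13 the libraries did not overlap, against 5.13% of all genes tested in that direction and 5.28% in the other. Between bone marrow and MC903 resident cells none of the 13 was called by edgeR, DESeq2 or limma, where edgeR called 1.32% of all genes tested higher. None had an unadjusted p under 0.05 in edgeR, and none had groups that did not overlap (3.97% of all genes tested in the higher and 4.32% in the lower direction). Their log2 differences ran from -0.11 to 1.29 with a median of 0.28. Without library 11 the median turned to -0.0627, with 7 of 13 negative, and without library 7 it was 0.0606. The 2 comparisons with untreated cells share their 5 untreated libraries, so they are not separate evidence.

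Fold changes varied with exon length in both comparisons with untreated cells. The 13 mitochondrial genes had a median length of 784 bases and the tested nuclear subunits of 1675, against 3589 for all genes tested. Among other genes averaging 10 CPM or more, the median log2 fold change between MC903 resident and untreated cells was 0.32 for the 182 genes under 1000 bases and -0.22 for the 4799 over 4000 bases. With an offset for gene length, none of the 13 mitochondrial and none of the 79 nuclear subunits tested was called in this comparison, and mt-Co3 and mt-Atp6 turned to -0.0251 and -0.000820 on the log2 scale. Between bone marrow and untreated cells the medians of other genes were 0.76 under 1000 bases and -0.14 over 4000 bases. There the same offset gave 4 of 13 mitochondrial and 33 of 79 nuclear subunits, against 5 and 31 without it. The offset also moved the median over all genes tested. It went from 0.24 to -0.0445 for MC903 resident and from -0.14 to 0.16 for bone marrow, each against untreated cells. Between bone marrow and MC903 resident cells it went from -0.28 to 0.26, and 40 nuclear subunits were called there, against 5 without the offset. The part of length in these differences was not tested. Between MC903 resident and untreated cells, 5 of the 13 were called without library 5, and 6 with DESeq2 size factors in edgeR.

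Among nuclear subunits, MC903 resident cells differed from untreated resident cells in few single genes. Of the 85, 79 passed the filter on low counts, and 4 of 79 were higher and none lower (5.06%, where 0.571% of all genes tested were higher and 1.68% lower). They were Cox6b2 of complex IV, Uqcrq and Uqcr10 of complex III and Atp5e of ATP synthase. Of genes averaging 10 CPM or more, 1.17% were higher, and 4 of the 77 nuclear subunits among them. The 79 log2 fold changes had a median of 0.39, against 0.24 over all genes tested. The gap of 0.14 turned to -0.38 with no filter on low counts. Among genes averaging 10 CPM or more the medians were 0.37 for nuclear subunits and -0.16 over all genes. Of the 79, 67 were positive and 27 had an unadjusted p under 0.05, of which 2 were lower. Shares of all genes tested with a positive sign or such a p were not computed. The libraries did not overlap for 4 nuclear subunits that were higher (2.17% of all genes tested) and for 2 that were lower (3.16% of all genes tested), Sdha and Atp5b.

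Cox6b2 encodes an isoform of subunit 6B of cytochrome c oxidase best known from testis (chromosome 7, 4751792 to 4753094, minus strand). It had 3.61, 6.04, 4.11, 8.18 and 9.52 CPM in untreated libraries, 26.1, 21.9, 35.0, 25.2 and 20.5 CPM in MC903 resident libraries and 28.3, 26.0, 29.7 and 17.1 CPM in bone marrow libraries. Every MC903 library lay above every untreated one, and the 2 MC903 groups overlapped. The fold was 4.09 for MC903 resident (log2 2.03 ± 0.395, edgeR adjusted p = 0.00523) and 4.01 for bone marrow (log2 2.004 ± 0.408, edgeR adjusted p = 0.00341) over untreated resident cells. The usual isoform Cox6b1 stood at 168 ± 48.5 CPM (SD, n = 5) in untreated, 233 ± 48.2 (n = 5) in MC903 resident and 278 ± 50.4 (n = 4) in bone marrow libraries and was called in no comparison.

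Uqcrq, a small subunit of complex III (chromosome 11, 53427922 to 53430831), had 48.7, 81.1, 58.8, 76.8 and 85.8 CPM in untreated libraries. It had 153, 106, 182, 209.9 and 146 CPM in MC903 resident and 225, 172, 172 and 237 CPM in bone marrow libraries. Neither MC903 group overlapped the untreated one. The folds were 2.27 (log2 1.18 ± 0.216, edgeR adjusted p = 0.00328) and 2.87 (log2 1.52 ± 0.227, edgeR adjusted p = 0.000174).

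Atp5e, the epsilon subunit of ATP synthase (chromosome 2, 174461072 to 174464105), had 44.7, 59.9, 44.1, 55.3 and 93.7 CPM in untreated and 103, 84.5, 217, 139.5 and 109.7 CPM in MC903 resident libraries. Untreated library 5 lay above MC903 resident library 7. The fold was 2.20 (edgeR adjusted p = 0.0228), and the call was lost without library 1, 3 or 8 (edgeR adjusted p up to 0.068). Uqcr10, another small subunit of complex III (chromosome 11, 4701973 to 4704342), had 29.2, 37.2, 36.0, 40.4 and 60.2 CPM in untreated and 89.0, 58.9, 111, 81.3 and 65.2 CPM in MC903 resident libraries. Libraries 5 and 7 again overlapped. Its fold of 1.99 (edgeR adjusted p = 0.0286) was lost without library 1, 2, 3, 6 or 8 (edgeR adjusted p up to 0.0809).

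The count of nuclear subunits in this comparison moved with the scaling and with single libraries. It was 14 with DESeq2 size factors and 15 with TMM factors taken from abundant genes (10 CPM or more on average), as the median over all genes went from 0.24 to 0.40 and 0.45. It was 2 without library 1 or without library 3, 12 without library 5, 8 without library 7, and 2 without libraries 7, 8 and 15, when Atp5e and Uqcr10 were lost.

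The second comparison set bone marrow against resident cells of the same treatment. Of the 79 nuclear subunits, 5 were higher and none lower in bone marrow cells (6.33%, where 1.32% of all genes tested were higher). They were Cyc1 and Uqcrc1 of complex III, Sdha of complex II and Atp5c1 and Atp5d of ATP synthase. For 15 of the 79 the bone marrow libraries all lay above the MC903 resident ones, against 3.97% of all genes tested, and for none did they all lie below. The median was 0.34, against -0.28 over all genes tested, and 70 of 79 were positive. Among genes averaging 10 CPM or more the gap was smaller, with a median of 0.35 for 77 nuclear subunits and 0.18 over all 8195. Of those 8195 genes, 3.33% were called higher. With DESeq2 size factors 58 of 79 were positive.

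Cyc1 encodes cytochrome c1, the subunit of complex III that hands electrons to cytochrome c (chromosome 15, 76343523 to 76346260). It had 90.3, 69.6, 59.0, 81.3 and 91.9 CPM in MC903 resident and 138, 162, 164 and 164 CPM in bone marrow libraries. The groups did not overlap, and the fold was 2.01 (log2 1.005 ± 0.217, edgeR adjusted p = 0.015). The untreated libraries had 65.7, 96.0, 90.2, 72.6 and 127 CPM, also below all bone marrow libraries. Uqcrc1, a core protein of complex III (chromosome 9, 108936633 to 108949623), had 194, 191, 173, 242 and 225 CPM in MC903 resident and 300.2, 320.3, 390.5 and 385 CPM in bone marrow libraries. There was no overlap, and the fold was 1.70 (log2 0.77 ± 0.180, edgeR adjusted p = 0.0255).

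Sdha, the flavoprotein of complex II that oxidises succinate (chromosome 13, 74322254 to 74350280), was lowest in MC903 resident cells. It had 130.2, 142, 146, 182 and 176 CPM in untreated, 103, 69.7, 83.2, 93.1 and 130.0 CPM in MC903 resident and 168, 144, 132 and 257 CPM in bone marrow libraries. The MC903 resident libraries lay below those of both other groups, with library 10 close to both. The difference from bone marrow cells passed (log2 0.87 ± 0.227, edgeR adjusted p = 0.0456) and that from untreated cells did not (-0.70 ± 0.216, edgeR adjusted p = 0.105). Library 15, which stood apart in macrophage and dendritic cell markers, was the highest, and without it the first difference did not pass. That call held without library 14 only, with an edgeR adjusted p of up to 0.14.

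Atp5c1 and Atp5d encode the gamma and delta subunits of the rotor of ATP synthase. Atp5c1 (chromosome 2, 10056016 to 10080510) had 208, 217, 171, 248 and 241 CPM in MC903 resident and 330.0, 428, 310.2 and 473 CPM in bone marrow libraries (log2 0.83 ± 0.197, edgeR adjusted p = 0.0279). Atp5d (chromosome 10, 80138632 to 80145818) had 176, 147, 194, 236 and 166 CPM in MC903 resident and 299, 272, 383 and 322 CPM in bone marrow libraries (log2 0.79 ± 0.194, edgeR adjusted p = 0.0333). The groups overlapped for neither gene. In 3.53% of its exon bases Atp5d overlaps Cbarp on the opposite strand.

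These 5 calls rested on single libraries. Without library 8 or 13 none of the 79 was called, and without libraries 7, 8 and 15 none was either. Without library 6, 7 or 10 the number was 1, and without 11 or 14 it was 3. With an offset for gene length 40 were called and with DESeq2 size factors 1.

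**Figure D3:**
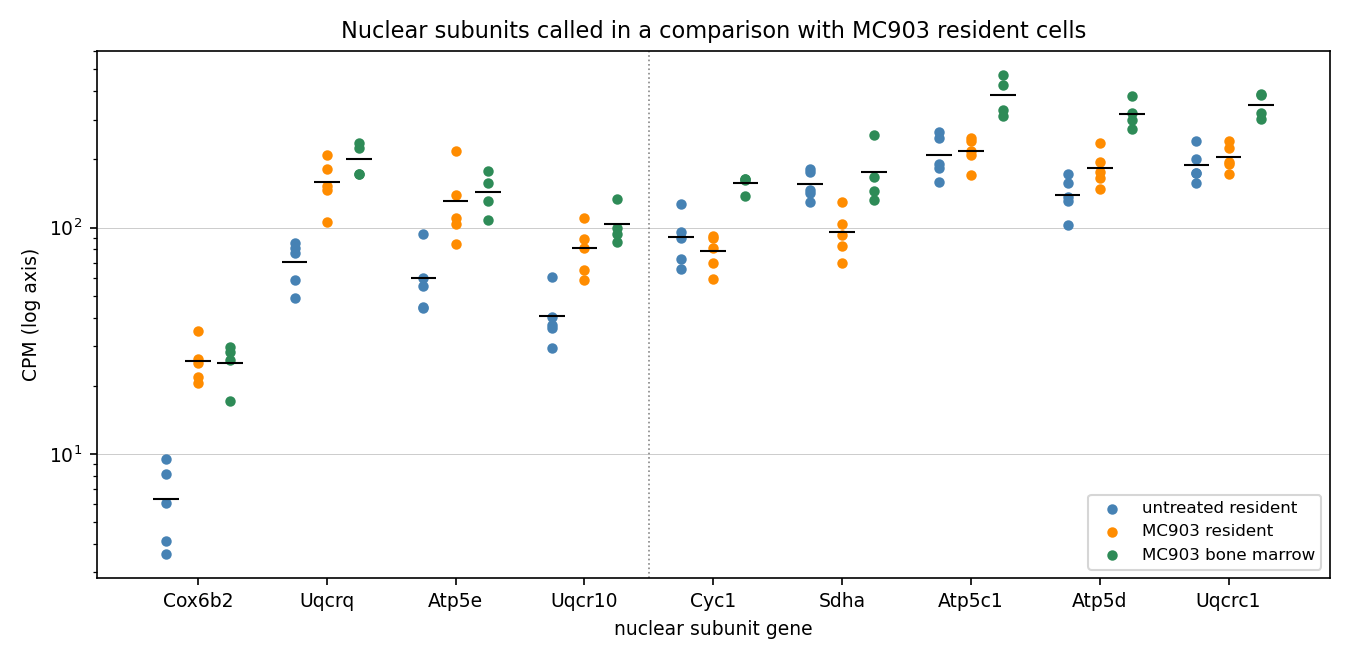
CPM (log axis) of the 9 nuclear subunits called in a comparison with MC903 resident cells; each point is a library and each black line a group mean. Left of the dotted line are the 4 that were higher in MC903 resident than in untreated resident cells, and right of it the 5 with higher levels in bone marrow cells than after MC903 in resident ones.

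The third comparison, bone marrow against untreated resident cells, held most of the differences. Of the 79 nuclear subunits, 31 were higher and none lower in bone marrow cells (39.2%, where 3.49% of all genes tested were higher). The log2 fold change was positive for 76 of 79, and the median was 0.74 against -0.14 over all genes tested. Called genes are more frequent among abundant genes. Of the genes averaging 10 CPM or more, 7.75% were higher, and 31 of the 77 nuclear subunits among them. The medians there were -0.006 over all genes and 0.74 for the nuclear subunits. Called genes are also more frequent among short genes. Among other genes averaging 10 CPM or more, 23.6% of those under 1000 bases and 18.3% of those from 1000 to 2000 bases were higher, against 7 of 17 and 16 of 30 nuclear subunits of those lengths. In those length classes the median log2 fold change of the other genes was 0.76 and 0.30, against 0.75 and 0.84 for nuclear subunits. From 2000 to 4000 bases it was 0.13 against 0.50, and over 4000 bases -0.14 against 0.74. For 34 of the 79 the bone marrow libraries all lay above the untreated ones, against 5.13% of all genes tested.

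By complex, 13 of 36 subunits of complex I, none of 4 of complex II, 5 of 9 of complex III, 5 of 14 tested of complex IV and 8 of 16 tested of ATP synthase were higher. The medians were 0.74, 0.37, 0.80, 0.60 and 0.92 on the log2 scale. Whether the complexes differed from each other was not tested. The 31 log2 fold changes ran from 0.77 for Ndufa6, an accessory subunit of complex I named here after its value was seen, to 2.004 for Cox6b2.

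After Cox6b2, the largest were those of Atp5mpl, Uqcrq, Ndufa10 and Uqcr10. Atp5mpl, a small membrane protein of ATP synthase (chromosome 12, 111961375 to 111966977), had 24.05, 31.4, 24.9, 27.8 and 57.9 CPM in untreated and 116, 89.7, 85.0 and 93.7 CPM in bone marrow libraries. The groups did not overlap, although library 5 stood above the other untreated ones, and the fold was 2.90 (log2 1.53 ± 0.296, edgeR adjusted p = 0.00214). Ndufa10, an accessory subunit of complex I (chromosome 1, 92439010 to 92473860), had 32.2, 57.0, 36.8, 23.4 and 57.1 CPM in untreated and 119, 109, 105 and 104 CPM in bone marrow libraries. The bone marrow libraries were close together and all above the untreated ones, with a fold of 2.64 (log2 1.40 ± 0.267, edgeR adjusted p = 0.00191). Uqcr10 reached 133, 99.7, 86.4 and 93.5 CPM in bone marrow libraries, a fold of 2.54 over untreated cells with no overlap (edgeR adjusted p = 0.00177). Atp5e reached 178, 131, 108 and 158 CPM there, also above all untreated libraries, a fold of 2.41 (edgeR adjusted p = 0.00626).

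Of the genes called between bone marrow and MC903 resident cells, Cyc1, Uqcrc1, Atp5c1 and Atp5d were also higher in bone marrow than in untreated cells, with folds of 1.74, 1.84, 1.84 and 2.28. For Cyc1 this call was lost without library 1, 4, 13, 14 or 15 (edgeR adjusted p up to 0.0766). The MC903 resident and untreated values of these 4 differed by log2 -0.20 to 0.40, none of which passed (edgeR adjusted p of 0.362 or more). Leaving out single libraries gave between 20 and 46 nuclear subunits in this comparison, with 20 without library 11 and 46 without library 5. Without libraries 7, 8 and 15 the number was 27.

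**Figure D4:**
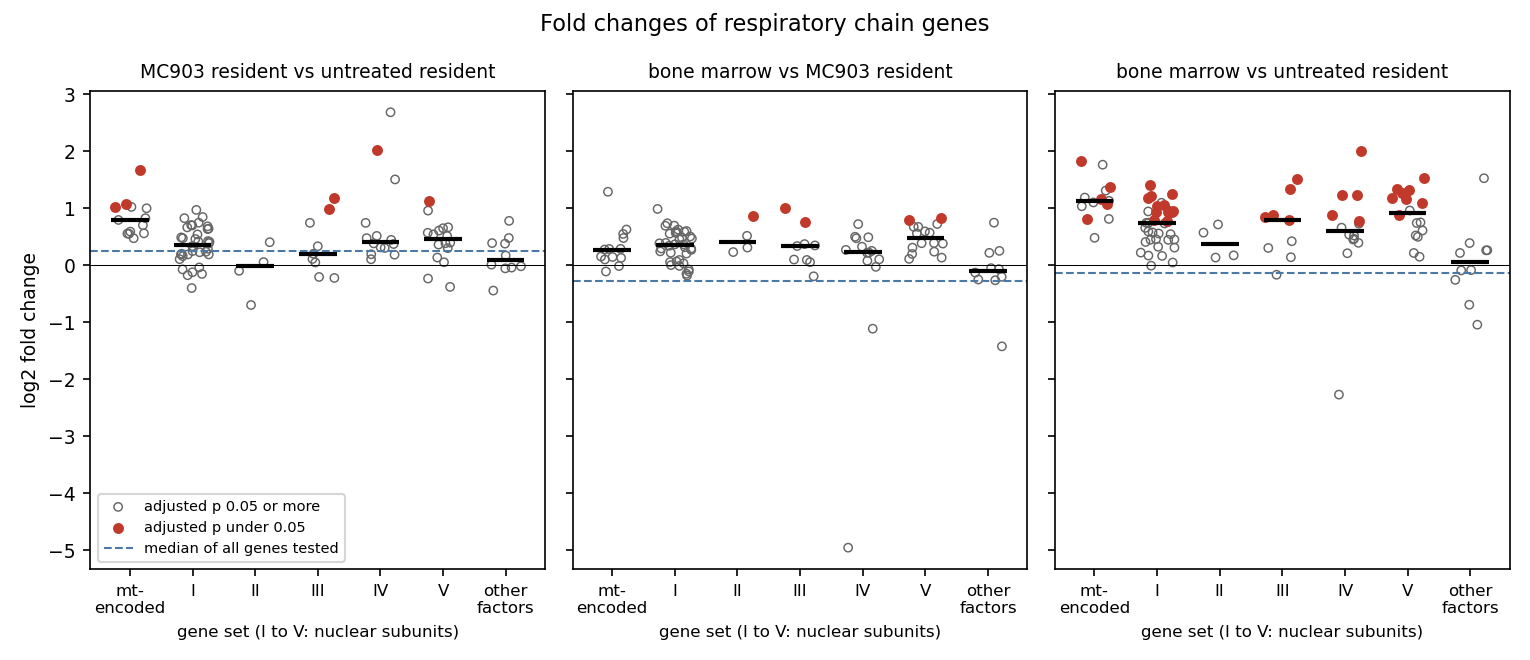
Log2 fold change of each tested gene in the 3 comparisons, by set: mitochondrially encoded subunits, nuclear subunits of complexes I to V, and the 10 assembly and other factors. Filled points passed the edgeR threshold, black bars are set medians and the dashed line is the median of all genes tested. No filled point lies below 0, and most filled points are in the comparison of bone marrow with untreated resident cells.

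The 5 nuclear subunits highest per kilobase were 4 subunits of complex IV and 1 of complex I. Cox8a had a mean of 481, Cox6a1 319, Cox6b1 315, Cox4i1 249.99 and Ndufa1 248 CPM per kilobase over all libraries. In plain CPM, Cox6a1 had 168 ± 33.3 (SD, n = 5) in untreated and 288 ± 51.6 (n = 4) in bone marrow libraries and was called there (log2 0.77, edgeR adjusted p = 0.0361). Ndufa1 went from 67.0 ± 30.5 to 129 ± 16.6 CPM (log2 0.94, edgeR adjusted p = 0.0337). Cox8a (256 ± 62.8 against 354 ± 47.2 CPM) and Cox4i1 (319 ± 87.3 against 504 ± 101 CPM) were not called. The Cox6a1 call was lost without library 1, 3, 4, 11, 13 or 15 and that of Ndufa1 without 1, 2, 3, 11 or 13, with edgeR adjusted p-values of up to 0.0956 and 0.09. The call of Ndufa1 was also lost without libraries 7, 8 and 15 (0.0614).

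Several subunits of complex IV exist as a general form and a form typical of muscle, lung, testis or fat. In these mast cells most of the tissue forms were barely detected. Cox4i2, Cox6a2, Cox8b, Cox8c and Ndufa4l2 did not pass the filter on low counts, and the highest library of each held 15, 21, 36, 19 and 12 counts. Cox7a1, the form of heart and skeletal muscle, had 0.644 ± 1.28, 1.84 ± 1.53 and 0.850 ± 1.32 CPM in untreated resident, MC903 resident and bone marrow libraries, next to 116 ± 23.4, 125 ± 29.2 and 134 ± 26.1 CPM of Cox7a2. Ndufa4, once assigned to complex I and now to complex IV, had 84.0 ± 33.4, 104 ± 26.3 and 122 ± 19.9 CPM. Neither was called. The sixth member that did not pass was a readthrough transcript of Atp5o, with no count in any library.

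Complex II is the one complex with no mitochondrial gene, and only Sdha passed in a comparison. Sdhb, its iron-sulfur subunit, had 194 ± 37.7, 201 ± 43.5 and 288 ± 44.6 CPM in untreated resident, MC903 resident and bone marrow libraries. The membrane anchor Sdhc had 63.8 ± 19.2, 59.6 ± 23.3 and 70.1 ± 16.8 CPM, and the other anchor Sdhd had 136 ± 36.5, 180.2 ± 51.1 and 224 ± 49.4 CPM. None of these 3 was called by edgeR in any comparison.

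The 10 genes that only share a prefix with the subunits were called in no comparison by edgeR, and none had an unadjusted p under 0.05. Their median log2 fold changes were 0.09, -0.10 and 0.07 for MC903 resident against untreated, bone marrow against MC903 resident and bone marrow against untreated cells. Their means over all libraries ran from 5.85 CPM for Ndufaf6 to 102 CPM for Cox7a2l.

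Other genes of mitochondrial energy supply were counted from 6 further lists. The mitochondrial ribosome translates the 13 mitochondrial mRNAs. Of its 77 tested Mrpl and Mrps genes, edgeR called 7 higher and none lower in bone marrow than in untreated cells (median 0.49). It called 3.49% of all genes tested higher there. DESeq2 called 18 of the list and limma 12. Shares of all genes tested called by DESeq2 or limma were not computed, here or for the lists below. In MC903 resident against untreated cells 1 was higher (0.571% of all genes tested), with 8 in DESeq2 and 1 in limma. Between the MC903 groups edgeR called none, DESeq2 2 and limma 1, and 6 had an unadjusted p under 0.05 in edgeR. Mrpl57 had 44.1 ± 15.7, 85.0 ± 15.7 and 121 ± 27.5 CPM across the 3 groups (log2 0.95 and 1.45 against untreated cells, edgeR adjusted p = 0.0421 and 0.000954). Mrpl34 and Mrpl28 differed by 1.26 and 1.25 between bone marrow and untreated cells (edgeR adjusted p = 0.0148 and 0.00585). The first of the Mrpl57 calls was lost in 7 of 10 fits that each left out 1 library (without library 1, 2, 3, 4, 6, 8 or 9, edgeR adjusted p up to 0.101).

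The 2 mitochondrial rRNA genes were both higher in bone marrow than in untreated cells. mt-Rnr2, the large rRNA, had 2671 ± 303 CPM (SD, n = 5) in untreated, 4631 ± 1355 (n = 5) in MC903 resident and 6635 ± 2124 (n = 4) in bone marrow libraries. Its log2 fold changes over untreated cells were 0.79 ± 0.203 and 1.31 ± 0.214 (edgeR adjusted p = 0.0412 and 0.000436). mt-Rnr1, the small rRNA, passed in the second only (log2 1.03 ± 0.251, edgeR adjusted p = 0.0134; 0.67 ± 0.238 and 0.176 in the first), and whether the 2 comparisons differed was not tested. The call of mt-Rnr2 in MC903 resident cells held only without library 4 or 7 among 10 fits that each left out 1 library (edgeR adjusted p up to 0.105), and that of mt-Rnr1 was lost without library 11 (0.081).

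Of 43 tested assembly factors, Uqcc3 was higher in both MC903 groups than in untreated cells (log2 1.22 and 1.27, edgeR adjusted p = 0.0421 and 0.0199) and Uqcc2 in bone marrow cells (1.18, edgeR adjusted p = 0.0486). Both help to assemble complex III. The 1 of 43 called in MC903 resident cells is 2.33%, where 0.571% of all genes tested were called higher. The 2 of 43 called in bone marrow cells are 4.65%, near the 3.49% of all genes tested that were called higher. Between the MC903 groups none of the 43 was called by edgeR, DESeq2 or limma, and none had an unadjusted p under 0.05 in edgeR. The Uqcc3 calls were lost without library 1, 2, 3, 4, 6, 8 or 9 in MC903 resident cells (edgeR adjusted p up to 0.101) and without library 3 or 11 in bone marrow cells (0.125). That of Uqcc2 was lost without library 1, 2, 3, 4, 11 or 13 (0.15).

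Of 24 electron carriers and shuttles, the phosphate carrier Slc25a3 was lower in both MC903 groups than in untreated cells (1 of 24 in each, where 1.68% and 3.37% of all genes tested were called lower). It fell from 1475 ± 82.4 CPM (n = 5) in untreated to 854 ± 148 CPM (n = 5) in MC903 resident and 654 ± 72.9 CPM (n = 4) in bone marrow libraries. The log2 fold changes were -0.79 ± 0.150 and -1.17 ± 0.163 (edgeR adjusted p = 0.00447 and 7.94e-05), and both calls were lost with an offset for gene length. Slc25a3 brings into the matrix the phosphate that ATP synthase uses. Coq7, of ubiquinone synthesis, was higher in bone marrow than in untreated cells (1.89 ± 0.515, edgeR adjusted p = 0.028), 1 of 24 where 3.49% of all genes tested were. The Coq7 call was lost without library 4, 13 or 15 (up to 0.0694). Between the MC903 groups edgeR called none of the 24, DESeq2 1 and limma 2, and 4 higher and 1 lower had an unadjusted p under 0.05 in edgeR.

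Of 26 tested genes of mitochondrial transcription and RNA handling, Fastkd3, Fastk and Hsd17b10 were higher in bone marrow than in untreated cells (log2 1.75, 1.004 and 0.98, edgeR adjusted p = 0.0209, 0.0396 and 0.0466), 3 of 26 where 3.49% of all genes tested were called higher. Polg, the mitochondrial DNA polymerase, was lower in bone marrow cells than in both resident groups, with 68.1 ± 15.1, 89.1 ± 35.2 and 30.0 ± 15.8 CPM (log2 -1.18 and -1.57, edgeR adjusted p = 0.0368 and 0.0164). That was 1 of 26 in each comparison, where 3.37% and 0.952% of all genes tested were called lower. Without library 1, 2, 3, 11, 13 or 15 the Polg call against untreated cells was lost (edgeR adjusted p up to 0.111). Those of Fastkd3 (library 2, 11 or 13, up to 0.0619), Fastk (1, 2, 3, 5, 11, 13 or 15, up to 0.188) and Hsd17b10 (1, 2, 3, 4, 11 or 13, up to 0.155) were also lost without 1 library. Between MC903 resident and untreated cells edgeR called none of the 26, DESeq2 1 and limma 1, and 1 higher and 3 lower had an unadjusted p under 0.05 in edgeR. Tfam, the packaging and transcription factor of mitochondrial DNA (24.6 ± 8.37, 23.9 ± 7.55 and 16.9 ± 6.43 CPM), was not called, and neither was the polymerase Polrmt.

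Among 19 regulators of mitochondrial biogenesis none was higher against untreated cells and 3 of 19 were lower in each MC903 group, where 1.68% of all genes tested were called lower in MC903 resident and 3.37% in bone marrow cells. Myc, which drives growth and biogenesis genes, had 138 ± 45.4 CPM in untreated, 9.89 ± 4.48 CPM in MC903 resident and 25.9 ± 3.53 CPM in bone marrow libraries. Its log2 fold changes over untreated cells were -3.80 ± 0.333 and -2.42 ± 0.341 (edgeR adjusted p = 1.66e-06 and 9.5e-05). Myc in bone marrow cells exceeded that in MC903 resident cells (1.38 ± 0.317, edgeR adjusted p = 0.0221), 1 of 19 where 1.32% of all genes tested were higher. The stress regulator Atf4 was lower in both MC903 groups than in untreated cells (-1.30 and -1.65, edgeR adjusted p = 0.000135 and 8.79e-06). Nfe2l2 was lower in MC903 resident cells (-0.92, edgeR adjusted p = 0.0207) and the deacetylase Sirt1 in bone marrow cells (-2.58, edgeR adjusted p = 0.0156). The Nfe2l2 call was lost without library 1, 2, 6, 7, 8 or 9 (edgeR adjusted p up to 0.0702), and that of Myc between the MC903 groups without 6, 7 or 8 (0.0727). The coactivator Ppargc1a was low (1.54 ± 1.25, 2.87 ± 2.66 and 1.23 ± 1.26 CPM), and Nrf1 (50.2 ± 12.1, 34.6 ± 18.8 and 52.1 ± 11.5 CPM) was not called.

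Of 21 enzymes of the tricarboxylic acid cycle, Idh2 and Mdh2 passed between the MC903 groups, with more in bone marrow cells (log2 1.05 and 0.71, edgeR adjusted p = 0.0444 and 0.0337), 2 of 21 where 1.32% of all genes tested were called higher. Against untreated cells Mdh2 was higher (0.64, edgeR adjusted p = 0.0271) and Suclg2 lower (-1.50, edgeR adjusted p = 0.0179) in bone marrow cells, where 3.49% and 3.37% of all genes tested were called higher and lower. The Suclg2 call was lost with only the 2 groups compared, with the length offset and without libraries 7, 8 and 15 (adjusted p up to 0.0846). The calls were lost for Idh2 without library 6, 7, 8, 10, 13 or 15 (edgeR adjusted p up to 0.139) and for Mdh2 without 6, 7, 8, 10, 11, 13 or 14 (0.16) and, against untreated cells, without 1, 3, 11 or 13 (0.112). Between MC903 resident and untreated cells edgeR called none, DESeq2 1 and limma 1, 3 had an unadjusted p under 0.05 in edgeR, and 16 of 21 differences were negative. The list holds the Sdh genes, which are subunits of complex II as well.

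Without libraries 7, 8 and 15 several calls from the 6 lists were lost, with edgeR adjusted p-values from 0.0511 for Hsd17b10 to 0.215 for Idh2. They were those of Uqcc3 and Mrpl57 between MC903 resident and untreated cells, and of Polg, Myc, Idh2 and Mdh2 between the MC903 groups. Between bone marrow and untreated cells they were those of Uqcc2, Coq7, Polg, Fastk, Hsd17b10, Suclg2 and Mrpl34. With an offset for gene length the calls of Uqcc3, Nfe2l2 and Mrpl57 in MC903 resident against untreated cells and that of Polg between the MC903 groups were lost. Between bone marrow and untreated cells so were those of Uqcc2, Polg, Fastk, Hsd17b10, Atf4, Sirt1 and Mdh2, and among subunits those of Uqcr10, Cox6a1 and Ndufa1.

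Promoter sequence was not used by the rule, and most promoters of nuclear subunits held none of 3 motifs searched. RefSeq promoters (250 bases before to 50 after the start, GRCm38.p6) were given for 66 of the 85. Searched on both strands, the NRF1 core GCATGCGC occurred in 15.2% of them against 3.05% of 27025 genes. The YY1 motif AAGATGGCG occurred in 10.6% against 1.64%, and the ETS motif CCGGAAGT in 7.58% against 4.31%. The NRF1 core read on one strand overlaps itself read on the other where the letters are palindromic. At least 1 of the 3 was present in 31.8% of the subunit promoters and 8.47% of all. It was present in 7 of 26 promoters of subunits higher in bone marrow than in untreated cells and in 14 of 39 of those not called. The 2 promoters below, chosen after their motifs and values were seen, show the NRF1 core read on both strands in 1 place and the YY1 motif, in capitals, each within the 50 bases after the start. Both genes were higher in bone marrow than in untreated cells (log2 0.88 for Uqcrc1 and 1.18 for Ndufs6, edgeR adjusted p = 0.0035 and 0.0133), and the call of Ndufs6 was lost without library 11 (0.0541). They are at chr9:108936398-108936697 (plus strand) and chr13:73328433-73328732 (minus strand) of GRCm38.p6.

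Uqcrc1: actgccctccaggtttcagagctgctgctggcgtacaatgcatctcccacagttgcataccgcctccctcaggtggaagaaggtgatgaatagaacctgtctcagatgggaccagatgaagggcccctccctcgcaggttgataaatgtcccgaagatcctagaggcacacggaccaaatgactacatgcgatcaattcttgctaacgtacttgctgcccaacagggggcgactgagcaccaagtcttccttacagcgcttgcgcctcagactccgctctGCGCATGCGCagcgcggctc
Ndufs6: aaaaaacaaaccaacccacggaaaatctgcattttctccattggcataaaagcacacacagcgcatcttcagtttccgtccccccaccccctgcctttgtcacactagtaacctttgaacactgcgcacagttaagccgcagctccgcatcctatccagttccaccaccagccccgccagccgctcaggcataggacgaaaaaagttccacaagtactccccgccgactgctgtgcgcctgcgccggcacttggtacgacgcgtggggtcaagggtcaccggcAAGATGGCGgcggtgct

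A match of letters is a description and not a site of binding, and no match says only that these letters are not in the window. Of the other nuclear subunits named above with an entry, Cox6a1, Ndufa6 and Sdhb held the NRF1 core and Cox8a the ETS motif. Cox6b1, Cox6b2, Cox7a1, Cox7a2, Cox8b, Ndufa1, Ndufa4, Ndufa10, Uqcr10, Atp5b, Atp5c1, Atp5d, Atp5e, Sdha and Sdhd had none of the 3.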

How the data were processed

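The deposited table holds raw counts per gene for 14 libraries, per the file headers with gene coordinates and exon length beside them. STAR, featureCounts and mm10 are named in the submitters' processing notes. Annotation, strand setting and the treatment of reads with several matches are not given in the sources used here. Symbols and gene types came from GENCODE M21, in which 55094 of 55487 identifiers had the same version and coordinates, all 108 members among them.

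Groups came from the sample labels. edgeR 4.0.16 (R 4.3.3) was fitted to all 14 libraries with filterByExpr (minimum count 10, total 15), TMM factors and the robust quasi-likelihood test, which left 21014 genes and a biological coefficient of variation of 1.15. P-values were adjusted by Benjamini-Hochberg over all of them, with a threshold of 0.05. CPM values were computed from the deposited counts with TMM factors, and shares from the raw counts. Standard errors were derived from each log2 fold change and its F statistic. The edgeR, limma, DESeq2 and length-offset fits were also run on simulated data. That simulation set a dispersion below the common value of 1.33 estimated here and did not cover the other settings. It therefore does not vouch for the calls in these data. The alternatives were other scalings, filters and gene sets, a length offset, DESeq2 1.42.0, limma 3.58.1 (voom with quality weights), only the 2 groups compared, and fits without single libraries or without libraries 7, 8 and 15.

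Named were the 13 mitochondrial genes, all nuclear subunits called where 10 or fewer were, otherwise the 5 largest changes each way, the 5 highest per kilobase, complex II, tissue isoform pairs and called genes of 6 lists (the 3 largest changes each way where over 6 were called). The 6 lists are assembly factors, carriers and shuttles, mitochondrial RNA handling, biogenesis regulators, tricarboxylic acid cycle and mitochondrial ribosome. Of 29 RNA handling genes listed, 27 were matched. Members and lists were chosen with earlier results of these data known.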

Additional observations from a re-analysis of the deposited data

Results flagged for a closer look

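Of 129 group values examined for a library standing apart from the rest of its group (Dixon's test at the 95% level), 13 met the criterion, 10.1%. Chance flags about 1 in 20, and the values share libraries.

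In untreated resident library 5, nuclear subunits of ATP synthase took 0.339% of counts, against 0.243 to 0.264% in the other 4. In the same library mt-Co3 had 36.8 CPM (next highest 20.9), Atp5mpl 57.9 CPM (next 31.4), Cox4i1 471 CPM (next 312) and Cox7a1 2.94 CPM (next 0.113).

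MC903 resident library 10 had the highest mitochondrial share, 3.24% of counts (next 2.05%). It was also apart from the other 4 for mt-Nd1 with 5517 CPM (next 3104), mt-Nd2 with 2391 CPM (next 1130.3), mt-Nd4 with 1983 CPM (next 1059.6), mt-Nd5 with 2879 CPM (next 1771), mt-Cytb with 5851 CPM (next 3026) and Ndufa10 with 76.5 CPM (next 53.0).

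In the bone marrow group, library 11 was apart at the low end for Cyc1, with 138 CPM against 162 CPM in the next library.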

How the results depend on the processing

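For MC903 resident against untreated cells, 6 of the 13 mitochondrial genes were called with DESeq2 size factors, TMM factors from genes of at least 10 CPM or DESeq2. The filter at 10 CPM left 10 mitochondrial genes, of which 6 were called. The number was 0 with the length offset and 3 to 5 without single libraries. Nuclear subunits called numbered 14 (DESeq2 size factors), 15 (TMM from genes of at least 10 CPM), 20 (filter at 10 CPM, which left 77), 10 (protein-coding genes), 17 (DESeq2), 11 (limma, 1 of them lower), 9 (2 groups), 0 (length offset) and 2 (without libraries 7, 8 and 15), and 2 to 12 without single libraries. The mitochondrial median minus that of all genes was 0.0371 with no filter and 0.23 without library 10. The nuclear one turned to -0.38 with no filter and -0.0409 with the length offset, where mt-Co3 and mt-Atp6 turned to -0.0251 and -0.000820. For bone marrow against MC903 resident cells, nuclear subunits called numbered 1 (DESeq2 size factors), 2 (TMM from genes of at least 10 CPM), 13 (limma), 3 (2 groups), 40 (length offset) and 0 (without libraries 7, 8 and 15), and 0 to 4 without single libraries. The median minus that of all genes was 1.50 (no filter) and 1.20 (limma) for mitochondrial genes, and 1.57 and 1.16 for nuclear subunits, for which it ran from 0.37 to 1.21 without single libraries. For bone marrow against untreated cells, 3 (no filter), 8 (filter at 10 CPM, of 10 tested) and 9 (DESeq2) mitochondrial genes were called, and 20 to 46 nuclear subunits without single libraries. Shares of all genes tested called under these other settings were not computed, and the cause of these shifts was not tested. No paired analysis was possible because no animal is named for any library. Whether the groups share animals is not known. The pools of at most 100 cells and genes with few counts, such as mt-Nd4l, limit what the depth can show.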
